A study of Homo sapiens with 8 samples.

Results

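The 10 genes described here encode enzymes of serine, glycine, asparagine and proline synthesis. They were taken by symbol from the 25192 gene symbols of the series, and each of the 10 has 1 row in every library. PHGDH, PSAT1 and PSPH make serine. SHMT1 and SHMT2 turn serine into glycine and folate-bound carbon, which MTHFD1 and MTHFD2 convert further. ASNS makes asparagine, and ALDH18A1 and PYCR1 make proline. Messenger RNA was sequenced from the human colorectal cancer cell lines HT29 and SW480, which both express truncated APC. Each line was transfected for 36 h with control siRNA (siCon) or with siRNA against PRDX2 (siPrdx2), the gene of the cytosolic peroxidase PrxII, with 2 libraries per group and 8 in all. HT29 cells were grown in McCoy's medium and SW480 cells in RPMI, both with fetal bovine serum. The samples of each line also have their own run of sample numbers, so line, medium and submission cannot be told apart. The labels do not say which of the siRNA sequences against PrxII was used, nor whether the duplicates were separate transfections, so the p-values measure the spread between these libraries, which may be technical.

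Proliferating cells draw serine from glycolysis. PHGDH oxidises phosphoglycerate, PSAT1 adds an amino group taken from glutamate, and PSPH removes the phosphate. SHMT1 in the cytosol and SHMT2 in mitochondria then split serine into glycine and a carbon unit carried by folate, which MTHFD1 and MTHFD2 convert into forms used for nucleotides. ASNS transfers an amide from glutamine to aspartate, ALDH18A1 reduces glutamate to pyrroline carboxylate, and PYCR1 reduces that product to proline. Many of these genes are known targets of ATF4, a transcription factor whose translation rises when amino acids run short or proteins misfold.

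The knockdown was visible in each line. PRDX2 was at 331.3 and 343.5 TPM, the deposited level scaled for transcript length and library size, in the HT29 control libraries and at 193.4 and 193.6 TPM after siPrdx2, and at 481.7 and 560.2 against 169.2 and 171.9 TPM in SW480 cells. The libraries held 8857442 to 10164137 expected counts, and a member had between 450 and 3892 counts in a library, so that all 10 passed the filter of 10 counts in 2 libraries in every group. All 8 epithelial markers examined (EPCAM, CDH1, keratins and others) reached 1 TPM in HT29 cells and 7 or all 8 did in SW480 cells. Between the controls, CDH1 (log2 difference -4.52) and KRT20 (-9.48) were lower and CDX2 (1.16) was higher in SW480 than in HT29 cells. The fibroblast, endothelial and immune lists summed to 0.1 to 37.2 TPM over the 8 libraries, with DCN and PTPRC at 0 throughout. In every group 2 of 5 immune genes reached 1 TPM. Of 6 fibroblast genes, 2 did in HT29 cells and 3 in SW480 cells. In SW480 cells the control duplicates stood apart. Across 13658 genes, the log2 difference between them had a Spearman's rho of -0.72 with transcript GC content, against -0.13 for the siPrdx2 duplicates and -0.19 and -0.21 in HT29 cells. For members in SW480 cells, values without each control library or after a correction for GC content are therefore given where they differ. In bulk samples like these, fewer cells expressing a gene and less RNA per cell cannot be told apart.

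In HT29 cells, 8 of the 10 genes rose after PrxII depletion and none fell. Among all 12961 genes tested, 7.76% rose, 9.82% fell and 17.6% did either. The 10 genes were chosen with earlier results of these data known, so this contrast is not independent of them. The 8 genes were ASNS, PSPH, PSAT1, MTHFD2, SHMT2, PHGDH, MTHFD1 and PYCR1, with log2 fold changes from 0.14 to 0.80. The median over the 10 genes was 0.32 and that over all genes 0.00. A gene is called here when edgeR's quasi-likelihood test on TMM-scaled counts gives it a p under 0.05 after Benjamini-Hochberg adjustment over all genes, and fold changes are siPrdx2 over siCon with their standard error (SE). Over all genes 1006 rose and 1273 fell, whereas limma on log2(TPM + 1), another scaling, gave 1252 and 548. When all 8 libraries of both lines were fitted together, which assigns HT29 cells a larger spread, ASNS, PSPH, PSAT1 and SHMT2 remained called and the other 4 genes lost the call. DESeq2 gave no call to MTHFD1 (adjusted p = 0.173) and PYCR1 (adjusted p = 0.237), and called the other 6 genes.

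The 3 genes of serine synthesis all rose in HT29 cells. PSAT1, the aminotransferase, was at 175.1 and 180.4 TPM in the control libraries and at 257.8 and 250.7 TPM in the siPrdx2 libraries, with a log2 fold change of 0.45 ± 0.04 (SE, edgeR adjusted p = 2.32e-07). PSPH, the phosphatase that releases serine, went from 84.7 and 84.9 TPM to 124.8 and 122.1 TPM, a log2 fold change of 0.48 ± 0.05 (edgeR adjusted p = 1.75e-06). PHGDH, which catalyses the committed step, had the lowest level and the smallest rise of the 3, from 60.5 and 58.1 TPM to 77.2 and 75.9 TPM, or 0.30 ± 0.06 on the log2 scale (edgeR adjusted p = 0.00136). For each gene both siPrdx2 libraries lay above both control libraries. Summed over the 3 genes, serine synthesis transcripts stood at 320.3 and 323.4 TPM in control cells and at 459.8 and 448.7 TPM after depletion. On GRCh37, the build equal to hg19, PHGDH lies on chromosome 1 from 120191034 to 120286841, PSAT1 on chromosome 9 from 80912041 to 80945009 and PSPH on chromosome 7 from 56078744 to 56119297.

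Of the 4 enzymes of serine-derived, folate-bound carbon, 3 rose in HT29 cells, and the mitochondrial pair had the larger fold changes. MTHFD2, the mitochondrial dehydrogenase, was the most abundant of all 10 genes, at 284.8 and 285.9 TPM in control cells and 392.4 and 374.4 TPM after depletion (log2 fold change 0.37 ± 0.03 SE, edgeR adjusted p = 3.26e-07). SHMT2, the mitochondrial hydroxymethyltransferase, went from 244.5 and 241.2 TPM to 319.9 and 321.4 TPM (0.34 ± 0.03, edgeR adjusted p = 1.22e-06). Both sets of duplicates were well apart from each other. The cytosolic MTHFD1 moved from 74.6 and 74.5 TPM to 90.2 and 84.7 TPM (0.17 ± 0.05, edgeR adjusted p = 0.0222), a call that was lost without siPrdx2 replicate 1, where its log2 fold change was 0.13 (edgeR adjusted p = 0.164). SHMT1, the cytosolic hydroxymethyltransferase, was at 55.1 and 56.7 TPM in control cells and at 60.6 and 55.6 TPM after depletion, so that the groups overlapped (log2 fold change -0.01 ± 0.06, edgeR adjusted p = 0.967, and 0.05 in limma on log2(TPM + 1)). The difference of these fold changes between genes was not tested. SHMT1 lies on chromosome 17 from 18231174 to 18266877, SHMT2 on chromosome 12 from 57623356 to 57628718, MTHFD1 on chromosome 14 from 64854749 to 64930175 and MTHFD2 on chromosome 2 from 74413299 to 74444692 (GRCh37).

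ASNS, the only enzyme of asparagine synthesis, had the largest fold change of the 10 genes in HT29 cells. It stood at 155.6 and 164.3 TPM in the control libraries and at 287.4 and 293.2 TPM in the siPrdx2 libraries, a log2 fold change of 0.80 ± 0.04 (SE, 1.74-fold, edgeR adjusted p = 4.69e-10), which ran from 0.75 to 0.84 with each library left out. ASNS lay below PSAT1 in TPM in the control libraries and above it in the siPrdx2 libraries. The gene lies on the minus strand of chromosome 7 from 97480989 to 97501854 (GRCh37). Its RefSeq promoter is shown because it holds a match to the composite element of C/EBP and ATF factors, known in this gene as its amino acid response element. The sequence covers chr7:97872359-97872658 of GRCh38.p14 on the minus strand and spans the annotated start, and capitals mark the match to TGATGNAA, 68 to 61 bases upstream of the start.
ASNS: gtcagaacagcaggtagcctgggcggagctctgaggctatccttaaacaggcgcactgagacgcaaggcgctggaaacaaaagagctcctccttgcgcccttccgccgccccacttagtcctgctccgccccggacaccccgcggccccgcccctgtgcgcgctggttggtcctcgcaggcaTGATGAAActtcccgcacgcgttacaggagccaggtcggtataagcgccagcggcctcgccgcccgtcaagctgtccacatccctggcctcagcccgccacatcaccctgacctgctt

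The table of RefSeq promoters held 8 promoters for 7 of the 10 genes, with 2 for ASNS. PSPH, SHMT2 and PYCR1 had no entry. TGATGNAA or its reverse complement TTNCATCA was found in 1 of the 8, the ASNS promoter above, and in 3.62% of all 35116 promoters of this length. The E-box CACGTG, the site of MYC and related factors, which reads the same on both strands, was found in 2 of the 8 and in 7.26% of all promoters. These matches are shown with their flanking bases on the gene's strand, with the E-box in capitals, 136 to 131 bases upstream of the start of ALDH18A1 and 15 to 10 bases upstream of that of MTHFD1.
ALDH18A1: ggctggcccgcCACGTGgagcgctggct
MTHFD1: cagtccctaagCACGTGggttgggttgt
A match says only that the letters occur in the window. The log2 fold change of MYC itself was 0.00 ± 0.04 (SE, edgeR adjusted p = 0.997) in the HT29 libraries and 0.17 ± 0.10 (edgeR adjusted p = 0.298) in those of SW480.

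The proline genes had small fold changes in HT29 cells. PYCR1, the mitochondrial reductase of the last step, went from 140.5 and 148.2 TPM to 170.6 and 164.1 TPM (log2 fold change 0.14 ± 0.05 SE, edgeR adjusted p = 0.0394). It lost the call without control replicate 1 (edgeR adjusted p = 0.236), siPrdx2 replicate 1 (0.163) or siPrdx2 replicate 2 (0.0527), at log2 fold changes of 0.10, 0.13 and 0.17. ALDH18A1, which makes the pyrroline carboxylate that PYCR1 reduces, was at 121.3 and 127.5 TPM and then at 142.5 and 139.5 TPM (0.12 ± 0.04, edgeR adjusted p = 0.0531), and passed without control replicate 2 (0.15, edgeR adjusted p = 0.0281) and in 7 of 10 other settings. Both genes thus lay near the threshold, with TPM groups that did not overlap. Over the 10 genes, both siPrdx2 libraries lay above both control libraries in TPM for 9 and below them for none, against 41.6% and 18.4% of all genes, and SHMT1 was the exception. PYCR1 lies on chromosome 17 from 79890260 to 79900288 and ALDH18A1 on chromosome 10 from 97365698 to 97416468 (GRCh37).

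In SW480 cells, where PRDX2 fell further, 2 of the 10 genes rose and none fell, against 1.22% of all 14112 genes tested that rose, 2.08% that fell and 3.3% that did either. Over all genes 172 rose and 294 fell, against 126 and 88 in limma on log2(TPM + 1) and 1222 and 1209 after the GC correction. The 2 genes were ASNS and PHGDH, each with a log2 fold change of 0.61. The common coefficient of variation that edgeR fitted was 0.0993 here and 0.0249 in HT29 cells. Counts of calls therefore do not compare the size of the response between the lines. SHMT2, for example, had 0.33 ± 0.10 here and 0.34 ± 0.03 in HT29 cells, and was called in HT29 cells only. ASNS was at 108.2 and 87.4 TPM in the control libraries and at 159.3 and 157.4 TPM in the siPrdx2 libraries (0.61 ± 0.12 SE, 1.53-fold, edgeR adjusted p = 0.0352). PHGDH was at 58.0 TPM in both control libraries and at 92.7 and 95.8 TPM after depletion (0.61 ± 0.11, edgeR adjusted p = 0.029). In both genes the siPrdx2 duplicates were close together and above the controls. Without siPrdx2 replicate 1 the adjusted p was 0.41 for ASNS and 0.379 for PHGDH, and without siPrdx2 replicate 2 it was 0.391 and 0.531 (edgeR), with log2 fold changes between 0.59 and 0.64. The spread then rested on the control pair alone. Without control replicate 1 the log2 fold changes were 0.76 for ASNS and 0.60 for PHGDH, and without control replicate 2 they were 0.47 and 0.61. In those fits the spread rested on the siPrdx2 pair alone. In limma on log2(TPM + 1), ASNS had an adjusted p of 0.0507. After the GC correction they were 0.75 ± 0.06 for ASNS (edgeR adjusted p = 2.11e-05) and 0.49 ± 0.07 for PHGDH (edgeR adjusted p = 0.00117).

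The other serine and folate genes of SW480 cells did not pass the test. Without 1 control library the spread rests on the siPrdx2 pair alone, so those fits are given by their fold changes. PSAT1 was at 152.1 and 132.1 TPM and then at 159.8 and 157.2 TPM (log2 fold change 0.07 ± 0.11 SE, edgeR adjusted p = 0.735). It was called after the GC correction (0.21 ± 0.06, edgeR adjusted p = 0.0313), and had 0.17 without control replicate 1 and -0.03 without control replicate 2. PSPH went from 63.6 and 66.1 TPM to 59.0 and 61.9 TPM (-0.19 ± 0.12, edgeR adjusted p = 0.335, and -0.23 without control replicate 1). It was the only gene whose siPrdx2 libraries both lay below the controls. SHMT2 went from 228.1 and 238.4 TPM to 301.5 and 324.2 TPM (0.33 ± 0.10, edgeR adjusted p = 0.105). It had 0.29 without control replicate 1 and 0.37 without control replicate 2. Its log2 fold change was 0.18 ± 0.07 after the GC correction (edgeR adjusted p = 0.076), and it passed in the fit of all 8 libraries (edgeR adjusted p = 0.00983) and with the correction and the block together (edgeR adjusted p = 0.0422). SHMT1 was at 64.8 and 66.2 TPM and then at 69.6 and 68.2 TPM (-0.01 ± 0.11, edgeR adjusted p = 0.949, and 0.07 in limma on log2(TPM + 1)), with no call in any of the 14 other settings. MTHFD1 (130.9 and 118 TPM, then 119 and 116.4 TPM) and MTHFD2 (210.9 and 173.9 TPM, then 190.3 and 186 TPM) had overlapping groups, with log2 fold changes of -0.17 ± 0.11 and -0.12 ± 0.12 (edgeR adjusted p = 0.352 and 0.558). Without control replicate 2 these reached -0.24 and -0.25, and without control replicate 1 they were -0.10 and 0.01. For MTHFD2 the GC correction also turned the sign, to 0.06 ± 0.06.

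The proline genes of SW480 cells both had higher levels after depletion without passing the test on the 4 libraries. PYCR1 was at 101.4 and 110.5 TPM and then at 149.3 and 154.1 TPM, with a log2 fold change of 0.43 ± 0.11 (SE, edgeR adjusted p = 0.0679). Its log2 fold change was 0.35 without control replicate 1 and 0.50 without control replicate 2, where the spread rested on the siPrdx2 pair alone. After the GC correction PYCR1 had 0.16 ± 0.07 (edgeR adjusted p = 0.141). With all libraries kept it passed in DESeq2 (adjusted p = 0.0459), with the replicate block (edgeR adjusted p = 0.0253) and in the fit of all 8 libraries (edgeR adjusted p = 0.00569). ALDH18A1 was at 71.4 and 76.6 TPM and then at 85.0 and 88.2 TPM (0.13 ± 0.11, edgeR adjusted p = 0.456). It had 0.19 without control replicate 2 and 0.08 without control replicate 1. Over the 10 genes, both siPrdx2 libraries lay above both controls in TPM for 7 and below them for 1, against 40.4% and 19.3% of all genes. GC content moved with these values. The fitted fold changes of all SW480 genes had a Spearman's rho of 0.54 with transcript GC content (-0.06 in HT29 cells), and PYCR1 (62.6% GC), SHMT2 (57.5%) and PHGDH (56.2%) lie at the upper end of the 10 genes while MTHFD2 (41.5%), PSAT1 (43.8%) and ASNS (44.5%) lie at the lower end. The GC correction lowered the fold changes of the first 3 and raised those of the last 3.

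**Figure D1:**
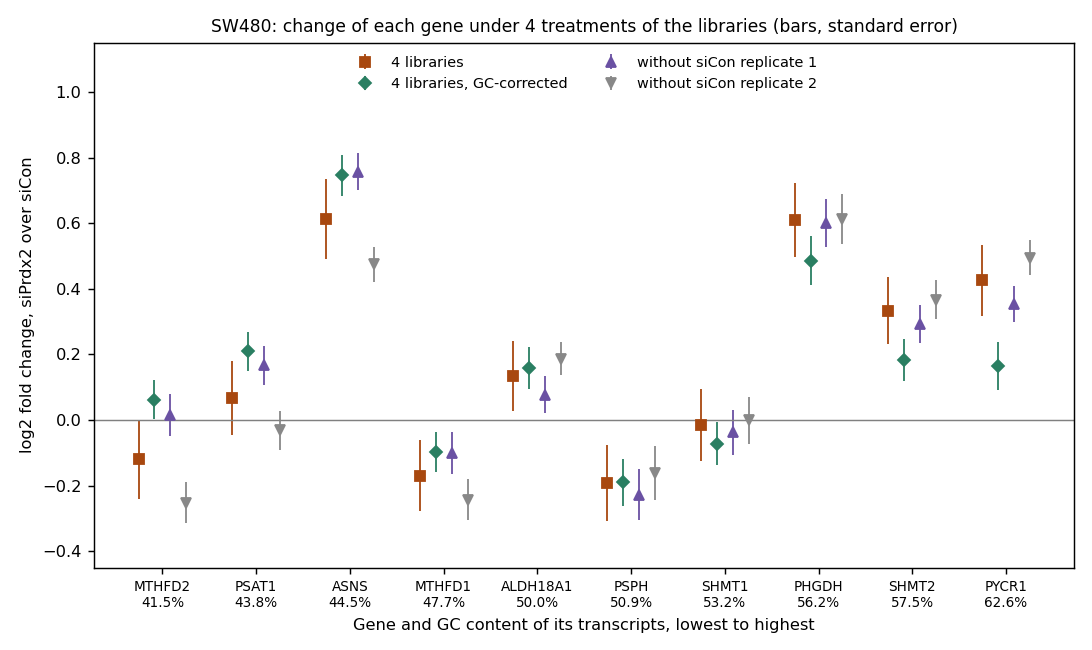
Log2 fold change of siPrdx2 over siCon in SW480 cells (y axis) with its standard error for the 10 genes ordered by transcript GC content (x axis), from 4 libraries, from 4 libraries after GC correction, and without each control library. ASNS lies between 0.47 and 0.76 and PHGDH between 0.49 and 0.61 in all 4, whereas PYCR1 lies between 0.16 and 0.50.

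Whether the lines differed in their response was tested in 1 fit of all 8 libraries. The difference, HT29 minus SW480, was called for 1 of the 10 genes, PSPH, against 1.12% of all 14772 genes, 0.616% with the larger value in HT29 cells and 0.508% with the larger in SW480 cells. Over all genes the difference was positive for 91 and negative for 75, against 44 and 59 in limma on log2(TPM + 1) and 420 and 544 after the GC correction. It was 0.67 ± 0.11 on the log2 scale (SE, edgeR adjusted p = 0.02), the log2 fold changes being 0.48 for HT29 and -0.19 for SW480. All 9 other settings with the full set of libraries kept the call of PSPH. It was lost without any 1 of the 4 HT29 libraries or the 2 SW480 siPrdx2 libraries, at differences of 0.63 to 0.70 and edgeR adjusted p values of 0.166 to 0.187. MTHFD2 had the next largest difference, 0.49 ± 0.12 (edgeR adjusted p = 0.0744), followed by PSAT1 at 0.39 ± 0.11 (0.111) and MTHFD1 at 0.34 ± 0.11 (0.137). The differences of these 3 genes were 0.35, 0.29 and 0.27 without SW480 control replicate 1 and 0.60, 0.47 and 0.40 without SW480 control replicate 2. After the GC correction they were 0.29, 0.22 and 0.23 (edgeR adjusted p = 0.00981, 0.0488 and 0.0495). With the replicate block added to the correction, MTHFD2 alone of these 3 was called (edgeR adjusted p = 0.0143). PHGDH and PYCR1 had larger fold changes in SW480 cells, with differences of -0.30 ± 0.11 and -0.28 ± 0.11 (edgeR adjusted p = 0.184 and 0.199). Without SW480 control replicate 2, which leaves a control group of 1, they were -0.32 and -0.37. After the GC correction the difference was -0.19 ± 0.09 for PHGDH (edgeR adjusted p = 0.246) and 0.00 ± 0.08 for PYCR1. For ASNS the difference was 0.18 ± 0.13 (edgeR adjusted p = 0.448), 0.31 without SW480 control replicate 2 and 0.03 ± 0.07 after the GC correction. SHMT1, SHMT2 and ALDH18A1 had differences of 0.01 ± 0.11, 0.00 ± 0.10 and -0.02 ± 0.10, and those of SHMT1 and SHMT2 were -0.02 in limma on log2(TPM + 1).

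Under control siRNA the 10 genes together were less abundant in SW480 than in HT29 cells, at 1190 and 1127 against 1397 and 1422 TPM. Of the 10 genes, 6 were lower and 1 was higher in SW480 cells, where 31.8% of all 14346 genes were lower, 35.7% higher and 67.5% either, so that the share of members called was near that of all genes. In TPM both SW480 libraries lay below both HT29 libraries for 8 members and above them for 2, against 35.2% and 49.1% of all genes. ALDH18A1 was lower by a log2 difference of -0.87 ± 0.10 (SE, edgeR adjusted p = 1.02e-04), ASNS by -0.83 ± 0.12 (3.71e-04), MTHFD2 by -0.70 ± 0.11 (6.30e-04) and PYCR1 by -0.57 ± 0.11 (0.0016). PSPH (-0.51 ± 0.11, edgeR adjusted p = 0.00294) and PSAT1 (-0.45 ± 0.11, 0.00585) were called as lower too. Without HT29 control replicate 1 or replicate 2 these calls were lost, with edgeR adjusted p values of 0.061 and 0.0632 for PSPH and of 0.074 and 0.106 for PSAT1. MTHFD1, the cytosolic enzyme, was the gene with the higher level in SW480 cells, by 0.61 ± 0.10 (edgeR adjusted p = 8.62e-04). SHMT2 (-0.18 ± 0.10), PHGDH (-0.16 ± 0.12) and SHMT1 (0.09 ± 0.11, and -0.01 after the GC correction) did not pass. SHMT1 had 0.19 without SW480 control replicate 1 and SHMT2 had -0.16 without SW480 control replicate 2. In those fits the spread rested on the HT29 pair alone. After the GC correction SHMT2 (-0.20, edgeR adjusted p = 0.00988) and PHGDH (-0.20, edgeR adjusted p = 0.0405) were called as lower. That made 9 of 10 genes called, against 10952 of all 13885 genes tested in that fit. PRDX2 itself was higher in SW480 cells by 0.49 ± 0.11 (edgeR adjusted p = 0.00447), a call lost without HT29 control replicate 1 (0.141) or replicate 2 (0.0931). On the TPM scale the median log2 difference of all genes between the lines was 0.15, against 0.04 on the scale of edgeR, and the same 7 genes were called in limma on log2(TPM + 1).

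Levels between genes can be compared on the TPM scale, which accounts for transcript length. In HT29 control cells the order ran from MTHFD2 at 285.4 TPM through SHMT2, PSAT1, ASNS, PYCR1, ALDH18A1, PSPH, MTHFD1 and PHGDH to SHMT1 at 55.9 TPM, and each gene's duplicates lay above those of the next. SW480 control cells were led by SHMT2 at 233.3 TPM, with PHGDH at the end at 58.0 TPM, and there the duplicates of PYCR1 and ASNS overlapped, as did those of SHMT1 and PSPH. After depletion PSPH was the lowest in SW480 cells, at 60.4 TPM, and PHGDH lay above ALDH18A1, SHMT1 and PSPH. The ratio of mitochondrial SHMT2 to cytosolic SHMT1 was 4.44 and 4.25 in HT29 control libraries and 5.28 and 5.78 after depletion, and 3.52 and 3.60 against 4.33 and 4.75 in SW480 cells. In both lines the groups were apart, with the higher ratio after depletion. The ratio of MTHFD2 to MTHFD1 differed more between the lines than between the siRNAs. It was 3.82 and 3.84, then 4.35 and 4.42 in HT29 cells, but 1.61 and 1.47, then 1.60 and 1.60 in SW480 cells. These ratios are given without a test, since groups of 2 cannot reach a small p by permutation.

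The mean transcript length that RSEM assigns from the isoform mix varied over the 8 libraries by at most 1.32%, for ASNS, between 2073 and 2101 bases, and by 1.14% for SHMT1. PHGDH, PSPH and MTHFD1 have 1 listed transcript each and a fixed length. The GENCODE annotation lists pseudogene copies of 6 members, 5 of ASNS, 7 of MTHFD2, 4 of PSAT1 and 1 each of PSPH, SHMT1 and MTHFD1, which have no row of their own in the tables. Reads shared with those copies are a source of uncertainty in the levels of these genes.

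Of 17 regulators and readouts of the ATF4 pathway, 10 rose and 2 fell in HT29 cells, where 7.76% of all genes rose and 9.82% fell. Their median log2 fold change was 0.32, against 0.00 over all genes. The list was chosen with earlier results of these data known, so this contrast is not independent of them. The factor ATF5 (-0.37 ± 0.09, edgeR adjusted p = 0.0094) and the kinase EIF2AK2 (-0.24 ± 0.06, edgeR adjusted p = 0.0118) were those that fell, both named after their values were seen. ATF4 itself went from 672.0 and 654.8 TPM to 801.6 and 822.2 TPM (0.23 ± 0.03 SE, edgeR adjusted p = 1.92e-05). DDIT4, an inhibitor of mTORC1, rose from 325.1 and 319.0 TPM to 512.1 and 507.1 TPM (0.60 ± 0.03, edgeR adjusted p = 4.95e-10). The stress factor ATF3 rose by 0.93 ± 0.06 (edgeR adjusted p = 5.61e-09) and CHAC1, which degrades glutathione, by 0.69 ± 0.05 (edgeR adjusted p = 5.36e-08). In SW480 cells, where 1.22% of all genes rose and 2.08% fell, 2 of 16 tested genes rose and 1 fell. The median log2 fold change of the list was 0.17, against 0.00 over all genes. DDIT3 (0.73 ± 0.14, edgeR adjusted p = 0.03) and CEBPB (0.73 ± 0.13, edgeR adjusted p = 0.0279), which both encode bZIP factors, rose. EIF2AK2, which phosphorylates eIF2α on sensing double-stranded RNA, fell (-0.68 ± 0.14, edgeR adjusted p = 0.0423). None of these 3 was called without siPrdx2 replicate 1 (edgeR adjusted p = 0.258, 0.162 and 0.344) or replicate 2 (0.368, 0.414 and 0.408). After the GC correction the log2 fold change was 0.39 for CEBPB and -0.43 for EIF2AK2, and EIF2AK2 was not called in limma on log2(TPM + 1) (adjusted p = 0.0997). DDIT3 (0.52 ± 0.06, edgeR adjusted p = 5.61e-06) and CEBPB (0.17 ± 0.05, 0.0252) were called as higher in HT29 cells too. Of the 3 genes named above as rising in HT29 cells, none was called in SW480 cells. There CHAC1 had 0.76 ± 0.24 (edgeR adjusted p = 0.109), ATF3 0.28 ± 0.23 (0.463) and DDIT4 -0.22 ± 0.14 (0.354). ATF4 in SW480 cells was at 386.6 and 343.1 TPM, then at 393.8 and 379.4 TPM (0.00 ± 0.11, edgeR adjusted p = 0.996). Under control siRNA 11 of the 17 genes were lower in SW480 cells and 2, EIF2AK4 and MYC, were higher, against 31.8% and 35.7% of all genes. Among the lower were DDIT4 by -3.32 ± 0.11 and CHAC1 by -3.75 ± 0.18 (edgeR adjusted p = 8.25e-08 and 4.53e-07).

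Most neighbouring folate genes and genes of serine and glycine use were below the threshold in HT29 cells, where 17.6% of all genes were called. Of 8 tested genes of aspartate, alanine and glutamine metabolism, 3 rose and 2 fell in HT29 cells. GPT2, the mitochondrial alanine aminotransferase, went from 103.3 and 105.8 TPM to 144.4 and 143.3 TPM (log2 fold change 0.39 ± 0.04 SE, edgeR adjusted p = 7.75e-07), ASS1, argininosuccinate synthase, fell by 0.49 (edgeR adjusted p = 6.03e-04) and GLUL, glutamine synthetase, by 0.17 (edgeR adjusted p = 0.00332). Of 13 other folate genes, GART of purine synthesis rose (0.16 ± 0.04, edgeR adjusted p = 0.0178) and the folate carrier SLC19A1 fell (-0.35 ± 0.09, edgeR adjusted p = 0.0141). Neither was called without control replicate 2 (edgeR adjusted p = 0.144 and 0.0604) or siPrdx2 replicate 1 (0.113 and 0.204), where SLC19A1 had a log2 fold change of -0.20. SPTLC2, which uses serine for sphingolipids, was the only one of 12 genes of serine and glycine use (0.12 ± 0.03, edgeR adjusted p = 0.0212), and was not called without control replicate 2 (0.103) or siPrdx2 replicate 1 (0.0924). GLUL was not called in limma on log2(TPM + 1) (-0.11, adjusted p = 0.121), nor were GLUL and ASS1 in the fit of all 8 libraries (edgeR adjusted p = 0.304 and 0.104). DESeq2 called none of GART, SLC19A1 and SPTLC2. In SW480 cells, where 3.3% of all genes were called, edgeR called none of the 7, 14 and 13 genes tested of these 3 lists. The log2 fold changes there were 0.43 ± 0.12 for GPT2 (edgeR adjusted p = 0.0762), -0.12 ± 0.13 for ASS1 and -0.11 ± 0.10 for GLUL.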

How the data were processed

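RNA from HT29 and SW480 cells transfected for 36 h with control or PRDX2 siRNA was sequenced in 8 libraries. Per the study's methods, which describe the HT29 samples, the authors used MapSplice to align the read pairs to hg19 and RSEM to quantify RefSeq genes. The deposited expected counts are RSEM's estimates per gene and were rounded to whole numbers for the tests. The deposited TPM values are scaled by the authors for transcript length and library. Transcript lengths were read from the same deposited tables. FastQC and DESeq2 are named in the submitters' processing notes. The library kit and the counting are not stated to use strand, so a gene and its antisense partner cannot be told apart.

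Genes reaching 10 counts in 2 or more libraries of a fit were tested with edgeR 4.0.16 (TMM, quasi-likelihood test, two-sided, Benjamini-Hochberg adjustment, threshold 0.05) in R 4.3.3. Each line was fitted alone, the difference between lines by the interaction term over 8 libraries, and the control libraries of both lines separately. The alternatives tried were DESeq2 1.42.0, limma 3.58.1 with a pseudocount of 1 or 0.1 on the log2 TPM, RLE scaling, dropping the filter, a robust prior, a replicate block, a GC correction (loess of log2 counts on transcript GC content, span 0.5, for the 91.4% of symbols with a value), all libraries fitted together, and each library left out. The tests were checked on simulated counts that held no trend with GC content, so not for the trend seen in SW480 cells.

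All 10 enzyme genes and PRDX2 are named in each comparison, and of each pathway list the counts and up to 3 called genes with the smallest adjusted p per line. ATF4, MYC, EIF2AK4, and ATF5, EIF2AK2, DDIT3 and CEBPB in HT29 cells fall outside that rule. So do ATF3, CHAC1, DDIT4, GPT2, ASS1 and GLUL in SW480 cells. All of these were chosen after their values were seen. The members and lists were chosen with earlier results of these data known. Depth was 8857442 to 10164137 counts per library, so that 3 counts, the limit that a count of 0 allows, correspond to 0.295 to 0.339 CPM, for counting error only. The list of other proline and ornithine genes is not reported here.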

Additional observations from a re-analysis of the deposited data

Results flagged for a closer look

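PSPH, the last enzyme of serine synthesis, differed between the lines in its response by 0.67 on the log2 scale (HT29 minus SW480), in edgeR's test of the difference itself (adjusted p = 0.02). PRDX2, the siRNA target, differed by 0.84 (edgeR adjusted p = 0.0128), having fallen by 0.87 in HT29 cells and by 1.70 in SW480 cells. Without any 1 of the 4 HT29 libraries or either SW480 siPrdx2 library it was not called (edgeR adjusted p = 0.122 to 0.159). DDIT4, an inhibitor of mTORC1, differed by 0.82 (edgeR adjusted p = 0.00722), rising by 0.60 on the log2 scale in HT29 cells against a value of -0.22 for SW480, where it was at 34.9 and 35.7 TPM and then at 32.4 and 32.2 TPM. The same 6 omissions ended the call of DDIT4, with edgeR adjusted p values of 0.0715 to 0.109.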

How the results depend on the processing

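With 2 libraries per group, a left-out library leaves a group of 1 that is assumed to vary like the others. In HT29 cells 2279 genes were called, against 871 with DESeq2 and 185, 4 members among them, in the fit of all 8 libraries, and 1574 to 2030 genes and 6 to 9 members with a library left out. In SW480 cells 466 genes and 2 members were called. The counts were 214 genes and 1 member with limma on log2(TPM + 1), 177 and 1 on log2(TPM + 0.1), 2431 genes after the GC correction, 3130 and 4 members with the replicate block added to it, 2415 and 4 members in the fit of all 8 libraries, and 87 to 7364 genes and 0 to 7 members with a library left out. The difference between the lines was called for 166 genes and 1 member. It was called for 267 genes without a filter, 311 and 2 members with DESeq2, 103 and 43 genes with limma at the pseudocounts of 1 and 0.1, 964 genes and 4 members after the GC correction, 1088 and 2 members with the block added, and 6 to 5237 genes and 0 to 7 members with a library left out. Between the lines under control siRNA no count moved by over 1.5 times. The replicate numbers are not stated to mark a shared day, and the deviations of same-numbered libraries correlated across genes with r = 0.106 in HT29 and 0.093 in SW480 cells. The replicate block gave 2889 genes and 9 members in HT29 cells, 1727 and 3 members in SW480 cells, 196 genes for the difference and 10044 between the lines. No member called in a main edgeR fit changed sign in that comparison under any alternative run. MTHFD2, PSAT1 and SHMT1, not called in the main fit of SW480 cells, took either sign there across the alternatives. Apart from the GC correction, whose own construction removes a trend with GC content, the cause of these shifts was not tested. PHGDH and SHMT1 had the lowest TPM of the members in HT29 cells and the largest standard errors there (0.06 on the log2 scale), whereas in SW480 cells those of ASNS and MTHFD2 were the largest (0.12). How far depth sets these errors was not tested.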
